A study of Mus musculus with 2 samples.

Results

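The cells described here are immune cells of the adventitia of the mouse aorta that carried transcripts of *Ear2*, *Tnip3*, *Lyz1* and other genes linked to type-2 responses, and they are called type-2 gate cells below. They were chosen by counts of unique molecular identifiers (UMIs), each of which stands for 1 captured transcript molecule. A barcode counted as a cell if it held 300 to 6500 genes and mitochondrial UMIs made up no more than 5%, and a cell was taken when at least 2 of the 7 genes *Ear2*, *Tnip3*, *Lyz1*, *Clec4b1*, *Lpl*, *Mgl2* and *Retnla* had a UMI. At most 1 of the resident macrophage genes *Lyve1*, *Folr2*, *Cd163*, *Cd209f*, *Cbr2*, *Gas6* and *Timd4* was allowed, and no UMI of the dendritic cell genes *Xcr1*, *Clec9a*, *Fscn1* and *Ccr7*. Of 4504 filtered cells, 708 met the gate. They were 31 of 306 cells at steady state (10.1%, 6.99 to 14.1 as 95% interval) and 677 of 4198 cells after angiotensin II (AngII) (16.1%, 15.0 to 17.3). The counts of these 18 genes chose the cells, so their levels are given as a description and not as a finding.

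Both libraries came from *Rank*Cre*Rosa26*eYFP mice of 16 weeks, in which Cre driven by *Rank* (*Tnfrsf11a*) switches on a heritable eYFP reporter. Cells positive for the leukocyte marker CD45 were taken from the adventitia, the outer coat of the aorta, of untreated animals (3 pooled) and of animals given AngII for 10 days by osmotic pump at 1.8 µg per kg per min (2 pooled). Each condition is 1 droplet library that counts the 3′ ends of transcripts, so there is no replicate error, no test between conditions was possible, and treatment, animals and library cannot be told apart. The reporter marks any cell with past *Rank* activity in its line of descent, and not a present state.

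Macrophages of the artery wall clear debris, present antigen and shape the matrix, and they come from embryonic progenitors as well as from blood monocytes. The type-2 cytokines IL-4 and IL-13 act on macrophages and dendritic cells through the factor STAT6, and *Retnla* and *Mgl2* are among the transcripts known to respond. *Retnla* encodes the secreted protein RELMα and *Mgl2* the lectin CD301b, which is found on macrophages and on type-2 dendritic cells. *Ear2* encodes an eosinophil-associated ribonuclease, *Lyz1* a lysozyme, *Lpl* lipoprotein lipase, *Clec4b1* a C-type lectin receptor and *Tnip3* a protein that restrains NF-κB signalling.

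The level of a gene in a group is its UMI total over the cells of that group divided by all UMIs of those cells and scaled to counts per 1e+06 (CPM), and a share of cells is the share with at least 1 UMI. Intervals are exact 95% intervals (Poisson for levels, Clopper-Pearson for shares, conditional for ratios) and cover counting error only. A ratio compares the same gene between groups of cells, and against a group with no UMI it is a bound set at 3 UMIs for that group. The 2 libraries shared 0 barcodes, and the median depth of filtered cells was 9105 UMIs at steady state but 1092 after AngII. The type-2 gate cells had a median of 19342 UMIs (844 to 49485) at steady state and 1211 (500 to 47486) on AngII. Deep cells weigh most in summed UMIs, so a second ratio, from cells randomly thinned to 1000 UMIs apiece, follows where it moved a named value by over 1.5 times and left at least 10 UMIs in both groups. The cell that held the most UMIs of a gene in a group is called its top cell, and the ratio without it follows where it held at least 5 UMIs and its removal moved the ratio by over 1.5 times, for the group in which this was larger.

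The starts of 3 of the 7 type-2 genes are shown, since these genes had the lowest AngII to steady-state ratios in the cells. RefSeq promoter windows on GRCm38.p6, from 250 bases before to 50 after the start, were matched for 6 of the 7 genes. Capitals mark matches on either strand to the STAT6-type motif TTCNNNNGAA, the C/EBP-type motif TTGCNNAA, the PU.1-type motif GAGGAAGT and the TATA box TATAAA. *Retnla* (chr16:48842551-48844461) and *Ear2* (chr14:44102654-44103534) lie on the plus strand and *Lyz1* (chr10:117287797-117292868) on the minus strand, and the windows, printed 5′ to 3′, are chr16:48842359-48842658, chr14:44102404-44102703 and chr10:117292819-117293118.
Retnla: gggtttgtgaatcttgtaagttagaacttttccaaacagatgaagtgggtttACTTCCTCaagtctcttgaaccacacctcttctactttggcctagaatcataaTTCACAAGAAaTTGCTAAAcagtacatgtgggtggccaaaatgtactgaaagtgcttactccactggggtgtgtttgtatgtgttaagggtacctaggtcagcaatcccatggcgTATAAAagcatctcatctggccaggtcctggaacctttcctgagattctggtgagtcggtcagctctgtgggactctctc
Ear2: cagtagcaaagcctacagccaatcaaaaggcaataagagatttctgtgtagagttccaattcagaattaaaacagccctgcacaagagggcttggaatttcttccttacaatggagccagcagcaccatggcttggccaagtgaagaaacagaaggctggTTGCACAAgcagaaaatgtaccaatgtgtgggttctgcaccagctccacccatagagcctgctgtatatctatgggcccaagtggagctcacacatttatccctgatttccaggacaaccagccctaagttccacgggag
Lyz1: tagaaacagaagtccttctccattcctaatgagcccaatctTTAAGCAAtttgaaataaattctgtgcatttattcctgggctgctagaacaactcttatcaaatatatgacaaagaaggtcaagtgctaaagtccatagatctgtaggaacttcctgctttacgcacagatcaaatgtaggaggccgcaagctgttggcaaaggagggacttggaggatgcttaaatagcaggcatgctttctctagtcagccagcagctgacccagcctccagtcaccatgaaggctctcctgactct
The *Retnla* window held all 4 motifs, with the STAT6-type match at -145 from the start, the C/EBP-type match at -134, the PU.1-type match at -198 on the other strand and the TATA box at -30. *Ear2* held a C/EBP-type match at -90 and *Lyz1* 1 at -209 on the other strand. The C/EBP-type motif was in 3 of the 6 windows and in 10.8% of all 32851 RefSeq windows of this length. The STAT6-type motif was in 1 of 6 (6.95% of all), the PU.1-type motif in 2 (3.2%) and the TATA box in 2 (13.6%). A match describes letters and not binding. Near-identical genes can be hard to tell apart by short reads, and the effect on these counts was not tested. Of the 50-base words in the last 400 bases of *Ear2* transcripts, 27.4% also occur in another gene, most often *Ear1*. This share was 19.1% for *Lyz1* (*Lyz2*), 18.8% for *Clec4b1* (*Clec4a2*), 9.23% for *Mgl2* (*Clec10a*) and 0% for *Retnla*, *Lpl* and *Tnip3*.

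At steady state the type-2 gate cells ranged from carrying few of the 7 genes to carrying all of them. All 7 were found in 8 of the 31 cells, 6 in 4, 5 in 5 and 4 in 3, while 3 cells had 3 and 8 had 2. On AngII most members stood at the edge of the gate, with 2 genes in 333 of 677 cells, 3 in 173, 4 in 99, 5 in 43, 6 in 20 and 7 in 9. Cells with 4 to 7 of the genes are called type-2-rich below, a division made after the values were seen. They were 20 of 306 cells at steady state (6.54%, 4.04 to 9.91) and 171 of 4198 on AngII (4.07%, 3.50 to 4.72). Their median depth was 25882.5 UMIs at steady state, where members with 2 or 3 genes had 12420, and 2156 against 1114 on AngII.

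**Figure D1:**
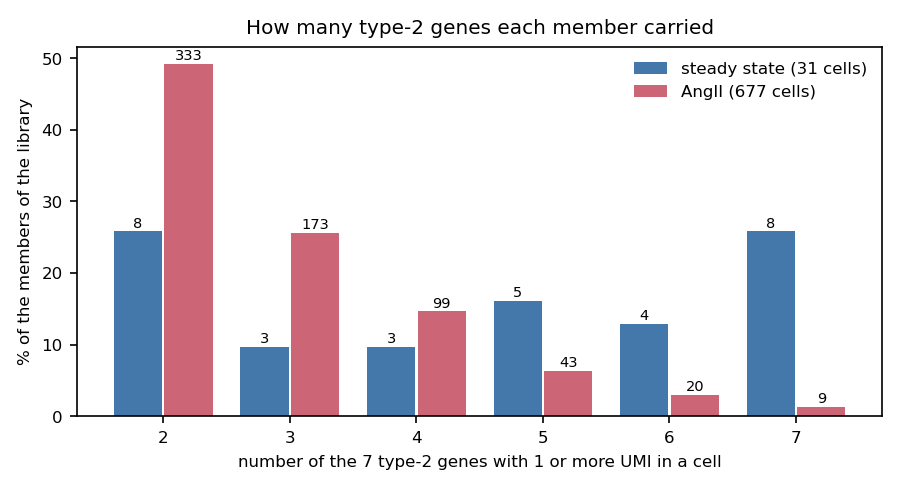
Number of the 7 type-2 genes with at least 1 UMI in a member (x axis) against the percentage of the members of that library (y axis), with the number of cells on each bar. At steady state the bars are highest at 2 and at 7 genes, with 8 cells each, and on AngII they decline from 333 cells with 2 genes to 9 with 7.

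Depth moves with this division and with the library. With every cell thinned to 1000 UMIs before the gate was applied, 32 of 303 cells at steady state (10.6%, 7.34 to 14.6) and 363 of 2288 on AngII (15.9%, 14.4 to 17.4) met it, with 3 and 1910 shallower cells left out. Type-2-rich cells were then 14 of 303 (4.62%, 2.55 to 7.63) and 74 of 2288 (3.23%, 2.55 to 4.04), with intervals that overlap. The thinned gate did not take the same cells. Of the full-depth members that could be thinned, 15 of 30 at steady state and 164 of 421 on AngII then had under 2 of the 7 genes. Cells that came in had lost resident or dendritic UMIs, since thinning adds none. Just outside the gate, 21 cells at steady state and 737 on AngII had 1 of the 7 genes. On AngII, *Retnla* was in 169 of 737 of those cells (175 CPM) and in 140 of 333 of the members with 2 genes (448 CPM). The limit on resident genes took out much of the steady-state library, where 100 of the 154 cells with at least 2 of the 7 genes carried over 1 resident gene.

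*Retnla* had the most UMIs of the 7 genes in the members of both libraries. It stood at 16983 CPM at steady state and 1883 CPM on AngII, a ratio of 0.111 (0.107 to 0.114) that thinning moved to 0.220. The steady-state level rested on few cells, since 1 cell held 2833 of 10634 *Retnla* UMIs, and without it the level was 13131 CPM. *Retnla* was found in 21 of 31 members at steady state and 355 of 677 on AngII. Resident macrophages (defined below) had it at 11736 CPM at steady state and 1956 on AngII.

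*Lyz1* had the lowest AngII to steady-state ratio of the 7, with 4242 CPM at steady state and 218 on AngII (0.0515, 0.0474 to 0.0559, and 0.111 after thinning). *Ear2* stood at 909 and 304 CPM (0.335, 0.302 to 0.371). *Lpl* stood at 1072 and 550.2 CPM (0.513, 0.470 to 0.562). The lectin genes and *Tnip3* lay nearer to 1. *Mgl2* stood at 834 and 626 CPM, *Clec4b1* at 339 and 286 (0.845, 0.728 to 0.985) and *Tnip3* at 309.8 and 363 (1.17, 1.01 to 1.37).

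Among type-2-rich cells alone, *Lyz1* and *Retnla* again had the lowest ratios. *Retnla* stood at 21842 CPM at steady state and 4051 on AngII, *Lyz1* at 5448 and 447, and *Ear2* at 1025 and 629. After thinning, *Retnla* stood at 19450 and 6624 CPM and *Lyz1* at 4500 and 842, which is less far apart. *Clec4b1* stood at 429 and 429 CPM, *Mgl2* at 1069 and 996 and *Tnip3* at 395 and 584. The steady-state members with 2 or 3 genes had little beside *Ear2*, which reached 502 CPM in them, with 5 UMIs of *Retnla* and 5 of *Lyz1* over the 11 cells. Of the 70 *Ear2* UMIs in these cells, 38 were in 1 cell.

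**Figure D2:**
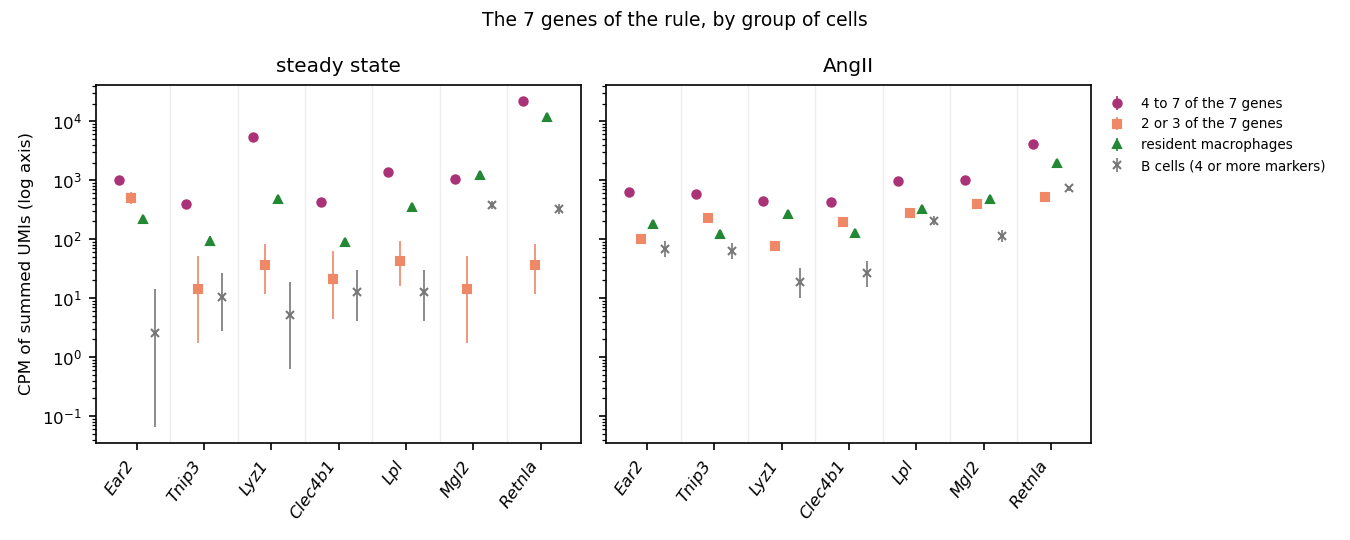
Level of the 7 type-2 genes in CPM (log axis) in type-2-rich cells, in members with 2 or 3 of the genes, in resident macrophages and in B cells with 4 or more markers, for each library. Points are summed-UMI levels with exact Poisson 95% intervals, and *Retnla* is the highest gene in type-2-rich cells of both libraries, at 21842 and 4051 CPM.

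Single steady-state cells show how uneven the 7 genes were at like depth. The cell with 2833 *Retnla* UMIs, of 32083 UMIs in all, also held 91 of *Ear2*, 85 of *Lyz1* and 51 of *Mgl2* and none of *Tnip3*. The cell with the most *Lyz1*, 664 of 33294 UMIs, held 1367 of *Retnla* and 1 of *Mgl2*. A cell of 32994 UMIs with 41 of *Mgl2* and 19 of *Clec4b1* held 1 of *Retnla* and none of *Lyz1* or *Lpl*. Cells reached the gate through different genes.

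On AngII the gate did not always mean *Ear2*, *Tnip3* or *Lyz1*. Of the 677 members, 202 (29.8%) had no UMI of these 3 genes and 21 had all 3, against 3 and 9 of the 31 at steady state. *Retnla* or *Mgl2* was present in 540 of the 677 (79.8%). Among the 333 members with 2 genes, *Lpl* with *Retnla* was the most frequent pair (50 cells), followed by *Mgl2* with *Retnla* (37 cells). Over all AngII members, *Lpl* and *Retnla* were found together in 195 cells and *Ear2* and *Lyz1* in 41.

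Free RNA in droplets, or cells that share a barcode, can place these transcripts in cells that do not make them. B cells held such counts, and which source gave them was not tested. In B cells with at least 4 of 7 B cell markers, *Retnla* was found in 14 of 54 cells at steady state (327 CPM, median depth 5645 UMIs) and 10 of 99 on AngII (726 CPM, median depth 4853 UMIs), where 1 barcode held 475 of the 493 UMIs. On AngII *Lpl* was found in 12.1% of these B cells and 52.4% of members, *Tnip3* in 14.1% and 43.4%, and *Lyz1* in 2.02% and 19.6%. The rule asked for these genes in members, so the difference from B cells is fixed by the gate. Resident macrophages carried them too, with *Mgl2* at 1226 CPM and *Retnla* at 11736 CPM at steady state. On AngII they had *Retnla* at 1956 CPM, against 1883 in members. *Lyz1* stood at 268 CPM in 20.3% of them, against 218 CPM in members. *Ear2*, *Tnip3*, *Clec4b1*, *Lpl* and *Mgl2* stood lower in them than in members on AngII.

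The label of macrophage was checked against 12 identity genes. At least 2 of them were found in 31 of 31 members at steady state and 646 of 677 on AngII. On AngII 438 of 461 classical monocytes (defined below) had at least 2 as well, so this check does not tell members from monocytes. *Lyz2*, the general myeloid lysozyme, was in 31 of 31 and 660 of 677 members. *Csf1r*, the receptor for the macrophage growth factor CSF1, was in 29 of 31 (340.2 CPM) and 348 of 677 (483 CPM). *Adgre1*, which encodes the macrophage antigen F4/80, was in 21 of 31 (107 CPM) and 191 of 677 (161 CPM). The complement gene *C1qa* was in 10 of 31 (481 CPM) and 447 of 677 (1636 CPM). Markers of type-2 dendritic cells stood beside these, with at least 2 of 10 in 13 of 31 and 130 of 677 members. At steady state these were 11 of 20 type-2-rich cells and 2 of the 11 other members, which were shallower. On AngII they were 43 of 171 and 87 of 506. At least 2 of these markers were also in 22 of 124 and 93 of 696 resident macrophages and, on AngII, in 71 of 461 classical monocytes. *Cd209a*, of the dendritic list, was in 12 of 31 (511 CPM) and 90 of 677 members (346 CPM). The gate therefore held cells with and without a UMI of the macrophage genes *Adgre1* and *C1qa*, and the name type-2 gate cells is kept for all of them. A cell with no UMI may still hold the transcript. After thinning, *Adgre1* was in 45 of 123 resident macrophages at steady state and 172 of 531 on AngII. Type-2-rich cells then had it in 1 of 20 and 17 of 133.

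Beside these dendritic markers, those of neutrophils on AngII and of innate lymphoid cells at steady state were in the most members. At least 2 of 6 neutrophil markers were in 1 of 31 members at steady state and 123 of 677 on AngII (18.2%), and their summed level was 47.9 and 1074 CPM. They were not particular to members. On AngII they were in 23.4% of resident macrophages, 27.1% of classical monocytes and 21.5% of reparative macrophages, groups defined below. At least 2 of 6 marker genes of innate lymphoid cells of the type-2 kind, which release IL-5 and IL-13, were in 12 of 31 members at steady state, all of them type-2-rich (12 of 20), and in 9 of 124 resident macrophages. On AngII they were in 25 of 677 members and 28 of 696 resident macrophages. In steady-state members this list held 5 UMIs of *Rora*, 61 of *Il1rl1*, 18 of *Il7r*, 56 of *Areg*, 1 of *Gata3* and 0 of *Cxcr6*. At least 2 T and NK cell markers were in 1 and 19 members, 2 plasmacytoid dendritic markers in 0 and 15, and 2 stromal or vessel markers in 0 and 4. At least 2 B cell markers were in 2 and 35 members. Eosinophils are known for *Ear* genes, but no member had 2 markers of the eosinophil list, and *Ccr3*, *Epx*, *Prg2* and *Il5ra* were at 0 UMIs in the members of both libraries. The mast cell and basophil markers *Fcer1a*, *Ms4a2* and *Mcpt8* were at 0 as well. The part of neutrophil RNA in the AngII values and of innate lymphoid RNA in the steady-state values was not tested.

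Type-2-rich cells differed from members with 2 or 3 genes at steady state in genes that the rule did not use. Of 1958 genes with at least 50 UMIs over both groups, 11.4% stood 2-fold or more higher in type-2-rich cells and 11% lower. Of 9 antigen presentation genes of the MHC class II list, 8 stood higher and 0 lower (median log2 ratio 2.39, all genes -0.02). *H2-Ab1* stood at 7868 against 1175 CPM (6.69, 5.72 to 7.88), with 71 of the 164 UMIs of the others in 1 cell, and *Cd74*, the invariant chain, had a ratio of 3.91 (3.61 to 4.24, and 5.99 without its top cell).

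Monocyte genes ran the other way at steady state. Of 6 nonclassical monocyte genes 6 stood lower in type-2-rich cells (median log2 ratio -3.72), and of 8 classical monocyte genes 5 stood lower and 2 higher. *Plac8*, a gene of blood monocytes, stood at 282 CPM in type-2-rich cells and 2859.7 in the others (0.0984, 0.0805 to 0.120), and was found in 2 of 20 and 9 of 11 cells. A single type-2-rich cell held 120 of the 137 UMIs, and the ratio without it was 0.0136. *Ace*, a gene of patrolling monocytes, stood at 30.8 and 487 CPM, and *Ly6c2*, of classical monocytes, at 28.8 and 430.0. Single type-2-rich cells held 13 of the 15 *Ace* UMIs and all 14 of *Ly6c2*. The 9 steady-state cells gated as classical monocytes had 2878 CPM of *Plac8* and 552 of *Ace*. The classical monocyte genes that stood higher in type-2-rich cells were *Ccr2*, the receptor for the chemokine CCL2, at 1588 against 624 CPM (2.55, 2.04 to 3.22), and *Fn1*, fibronectin (4.04, 3.29 to 5.01, and 6.71 without its top cell).

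Some transcripts were found in steady-state type-2-rich cells and not in the 11 other members. *Cd209a* had 320 UMIs in 12 of 20 type-2-rich cells and 0 in the others, at least 30.6-fold higher. *Cd226*, an adhesion receptor, had 121 UMIs in 19 of 20 cells and 0 in the others, at least 11.6-fold higher. *Il1rl1*, which encodes the receptor for the alarmin IL-33, had 61 UMIs in 16 of 20 cells and 0 in the others, at least 5.83-fold higher. Chemokines were divided, with *Ccl6* (2.80, 2.33 to 3.39) and *Ccl9* (3.99, 2.86 to 5.73) higher in type-2-rich cells. *Ccl4* had a ratio of 0.00793 (0.00288 to 0.0175), but 1 of the other members held 214 of their 217 UMIs and without it the ratio was 0.530.

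On AngII no antigen presentation gene of the list was 2-fold apart between type-2-rich cells and the other members. Of 6627 genes, 1.71% stood 2-fold or more higher in type-2-rich cells and 2.72% lower. Of 10 MHC class II genes 0 stood higher and 0 lower, with *H2-Ab1* at 7989 against 6544 CPM. *Il1rl1* (4.98, 3.22 to 7.92) and *Cd226* (3.70, 2.62 to 5.31) again stood higher in type-2-rich cells, and *Cd226* was in 52 of 171 of them and 44 of 506 of the others. *Irf4*, a transcription factor of type-2 macrophages and dendritic cells, had a ratio of 2.51 (1.71 to 3.71), and *Ccl24*, which attracts eosinophils, 3.18 (2.56 to 3.97). Of the 252 *Ccl24* UMIs in type-2-rich cells 196 were in 1 cell, and the ratio turned to 0.713 without it.

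*Plac8* stood lower in the AngII type-2-rich cells too, at 171 against 819 CPM (0.209, 0.180 to 0.240, and 0.323 after thinning), as did 5 of 8 nonclassical and 4 of 11 classical monocyte genes. *Spp1*, osteopontin, stood at 578 against 2165 CPM (0.267, 0.247 to 0.289). *Inhba*, an activin subunit, had a ratio of 0.139 (0.0809 to 0.226), which was 0.591 without the cell with most of its UMIs. Of 10 proliferation genes 7 stood higher, but the ratio of *Mki67* (2.24, 1.67 to 3.03) was 0.902 after thinning and 1.45 without its top cell.

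**Figure D3:**
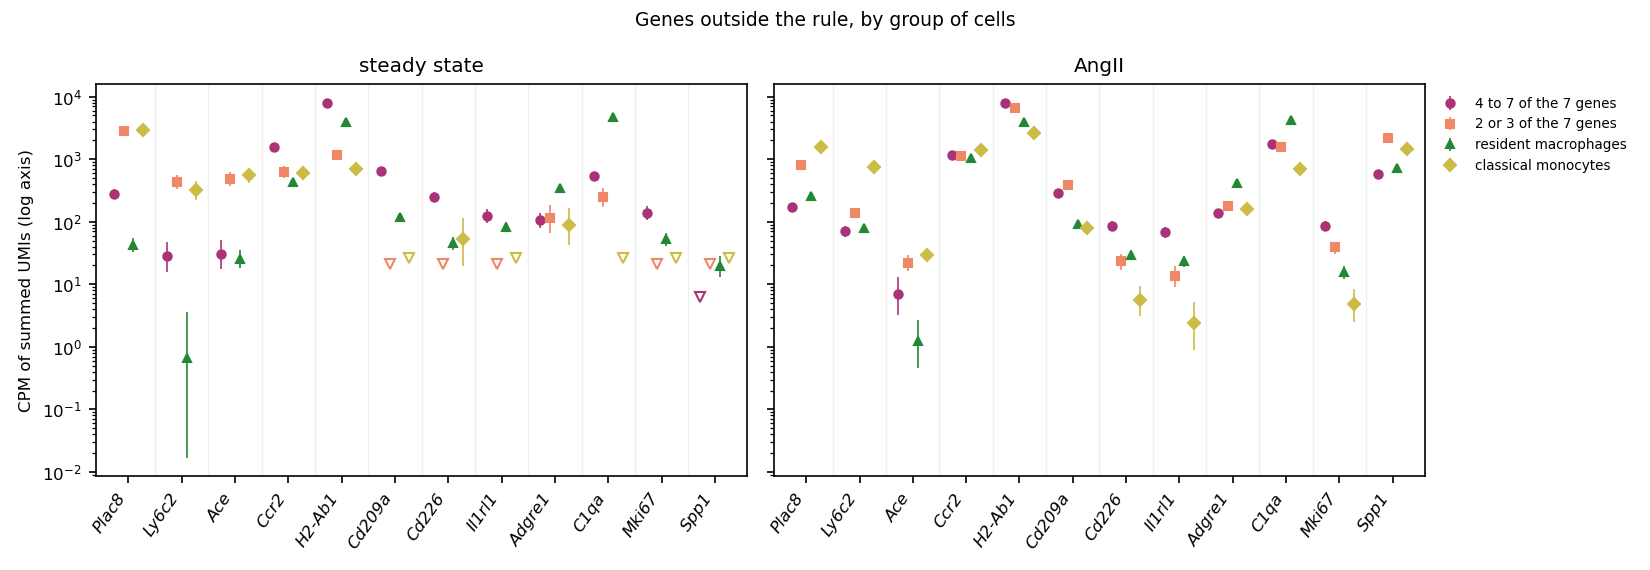
Level in CPM (log axis) of 12 genes outside the rule in type-2-rich cells, members with 2 or 3 genes, resident macrophages and classical monocytes, by library, with exact Poisson 95% intervals and open triangles at the 3-UMI floor for groups with no UMI. At steady state *Plac8* stands at 2859.7 CPM in members with 2 or 3 genes and 282 in type-2-rich cells, and on AngII *H2-Ab1* stands at 6544 and 7989 CPM.

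The members were next set against resident macrophages, gated by at least 2 of the 7 resident genes and no dendritic UMI (124 cells at steady state, median 10128.5 UMIs, and 696 on AngII, median 2355), with the 18 genes of the rule left out. In the values below the members come first and the other group second. At steady state members stood lower in macrophage identity genes and higher in monocyte genes. Of 5615 genes, 5.13% stood 2-fold or more higher in members and 11.9% lower. Of 12 identity genes 9 stood lower and 0 higher (median log2 ratio -2.10, all genes -0.03). *C1qa* stood at 481 against 4732 CPM (0.102, 0.0902 to 0.114, and 0.0623 without its top cell), *Csf1r* at 340.2 against 1374 (0.248, 0.214 to 0.285) and *Adgre1* at 107 against 349.6 (0.306, 0.234 to 0.395).

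Of 8 classical monocyte genes compared at steady state, 6 stood higher in members and 1 lower (median log2 ratio 2.55). *Plac8* stood at 856 against 43.0 CPM (19.9, 15.4 to 26.1, and 59.1 without its top cell), *Ccr2* at 1373 against 426 (3.23, 2.91 to 3.58) and *Fn1* at 2362 against 577 (4.09, 3.76 to 4.45, and 7.94 after thinning). The division above applies here, since *Plac8* was highest in members with 2 or 3 genes and *Ccr2* and *Fn1* in type-2-rich cells. Of 10 MHC class II genes 4 stood higher and 1 lower, with the regulator *Ciita* at 2.61 (1.94 to 3.50) and *H2-Ab1* at 1.61 (1.54 to 1.67). Among single genes, *Gpr141*, an orphan receptor gene (11.2, 6.77 to 19.5, and 19.0 without its top cell), *Napsa*, an aspartic protease gene (6.69, 5.21 to 8.67), and the integrin gene *Itgal* (6.04, 4.27 to 8.67, and 13.9 without its top cell) were near the top. The inflammatory cytokine *Il1b* stood at 565 against 97.8 CPM (5.78, 4.76 to 7.04, and 9.68 without its top cell).

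Other resident macrophage transcripts were scarce in steady-state members, with 10 of 11 lower (median log2 ratio -4.31). The exception was *Fcrls*, an Fc receptor-like gene, at 591 against 609 CPM. Of 11 chemokines 7 stood lower, with *Ccl2* at 0.117 (0.0999 to 0.137, and 0.0561 without its top cell), *Ccl7* at 0.0420 (0.0280 to 0.0605, and 0.00295 without its top cell) and *Ccl8* at 0 UMIs against 159. Of 9 alternative activation genes outside the rule 5 stood lower and 1 higher. Among the lower were *Mrc1*, the mannose receptor (0.236, 0.210 to 0.265), and the lectin *Clec10a* (0.371, 0.297 to 0.459). The scavenger receptor gene *Stab1* had 5 UMIs in members and 916 in resident macrophages (0.0134, 0.00433 to 0.0313), and the lectin gene *Cd209g* 1 and 243 (0.0101, 0.000254 to 0.0567).

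On AngII, 2.45% of 9093 genes stood 2-fold or more higher in members than in resident macrophages and 4.62% lower. Of 12 identity genes 5 stood lower (median log2 ratio -0.86), with *C1qa* at 1636 against 4192 CPM (0.390, 0.379 to 0.402) and *Adgre1* at 161 against 419.9 (0.384, 0.349 to 0.423). Of the other resident transcripts 11 of 11 stood lower (median log2 ratio -2.47). *Cd209g* had the lowest ratio (0.0328, 0.00884 to 0.0855) of the named genes. The chemokine *Ccl8* stood at 133 against 1160.3 CPM (0.115, 0.104 to 0.127, and 0.278 after thinning). Whether these ratios differ between the libraries was not tested.

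Members on AngII stood higher than resident macrophages in 2 of 10 MHC class II genes, 8 of 11 proliferation genes and 6 of 8 type-2 dendritic genes. *H2-Ab1* stood at 7099 against 3996 CPM (1.78, 1.74 to 1.81). *Mki67*, a marker of dividing cells, stood at 57.3 against 15.5 CPM (3.70, 2.82 to 4.91) and was in 63 of 677 and 31 of 696 cells. *Cd209a* stood at 346 against 92.6 CPM (3.74, 3.35 to 4.18), and *Flt3*, a receptor of dendritic cell development, at 27.2 against 8.36 (3.25, 2.22 to 4.84). *Ccl17*, a chemokine of dendritic cells and type-2 macrophages, had a ratio of 4.38 (3.25 to 5.96), but 1.26 after thinning and 2.79 without its top cell. *Inhba* had 225 against 13 UMIs (24.7, 14.2 to 47.1), and 7.32 without its top cell.

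Classical monocytes on AngII were 461 non-members with at least 2 of *Ly6c2*, *Plac8*, *Chil3*, *Vcan* and *Hp* (median 1506 UMIs), and those 5 genes were left out. Of the members, 144 of 677 on AngII and 9 of 31 at steady state met these monocyte genes too. The gate on the 7 genes divides the groups, and they are not distinct cell types. Members stood higher in antigen presentation and cell-cycle genes. Of 8131 genes, 2.94% stood 2-fold or more higher and 2.05% lower. Of 10 MHC class II genes 7 stood higher and 0 lower (median log2 ratio 1.29, all genes -0.02), with *H2-Ab1* at 7099 against 2649.6 CPM (2.68, 2.61 to 2.75). Of 10 proliferation genes 9 stood higher, with *Mki67* at 57.3 against 4.86 CPM (11.8, 6.59 to 23.2). The growth factor receptor gene *Fgfr1* (15.5, 7.32 to 39.2), *Cd226* (8.37, 4.84 to 15.7, and 16.7 without its top cell) and *Il1rl1* (14.1, 6.29 to 39.3) stood higher in the members here too.

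As a list, macrophage identity genes did not set AngII members apart from these monocytes, with 3 of 12 higher, 0 lower and a median log2 ratio of -0.07. The 3 were the complement genes *C1qa* (2.38, 2.25 to 2.52), *C1qb* and *C1qc*, while *Csf1r* (0.938, 0.871 to 1.01) and *Adgre1* (1.03, 0.900 to 1.17) had intervals that include 1. *Ccr2* had a ratio of 0.818 (0.782 to 0.857). Of 6 neutrophil markers 6 stood lower in members, with *S100a9* at 0.203 (0.192 to 0.215). *Thbs1*, thrombospondin, had a ratio of 0.266 (0.251 to 0.282) and *Arg1*, arginase, 0.311 (0.280 to 0.346). *Cd36*, a fatty acid transporter, stood higher (5.02, 3.68 to 6.97), as did the fatty acid-binding protein gene *Fabp4* (4.12, 3.08 to 5.61, and 2.20 without its top cell).

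Reparative macrophages on AngII were 158 non-members with at least 2 of *Arg1*, *Spp1* and *Inhba* (median 1352 UMIs), and those 3 genes were left out. Of the 677 members, 48 met these reparative genes too. Of 7271 genes, 5.16% stood 2-fold or more higher in members and 4.33% lower. Members stood higher in 9 of 10 MHC class II genes (median log2 ratio 2.23), with *H2-Ab1* at 7099 against 1425 CPM (4.98, 4.69 to 5.30), and in 8 of 10 proliferation genes. *Irf4* had a ratio of 6.65 (2.53 to 24.8), *Batf3*, a factor of dendritic cells, of 7.44 (4.11 to 15.0) and *Cd209a* of 7.70 (5.48 to 11.2, and 252 without its top cell). *Cd226* had 159 UMIs in members and 1 in reparative macrophages (35.9, 6.34 to 1425), and *Ccl17* had 184 and 0, at least 13.8-fold higher (8.80 without its top cell).

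Of 9 other reparative genes 5 stood lower in members (median log2 ratio -1.08). *Thbs1* stood at 459 against 2449.9 CPM (0.187, 0.175 to 0.201), and the growth factor gene *Vegfa* (0.252, 0.205 to 0.310, and 0.388 after thinning), the lipid receptor gene *Trem2* (0.422, 0.368 to 0.485) and the haem oxygenase gene *Hmox1* (0.474, 0.431 to 0.523, and 0.276 without its top cell) stood lower too. *Apoe*, apolipoprotein E, had a ratio of 0.309 (0.302 to 0.316), and *Il1a*, an alarm cytokine, of 0.0237 (0.0154 to 0.0350). A single reparative cell held 232 of the 267 *Il1a* UMIs of that group, and the ratio without it was 0.176. Of the lectin genes next to *Clec4b1*, *Clec4a2* (2.01, 1.70 to 2.40) stood higher in members and *Clec4n* (0.399, 0.363 to 0.440), *Clec4d* (0.254, 0.220 to 0.293, and 0.429 after thinning) and *Clec4e* (0.450, 0.383 to 0.531) lower.

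**Figure D4:**
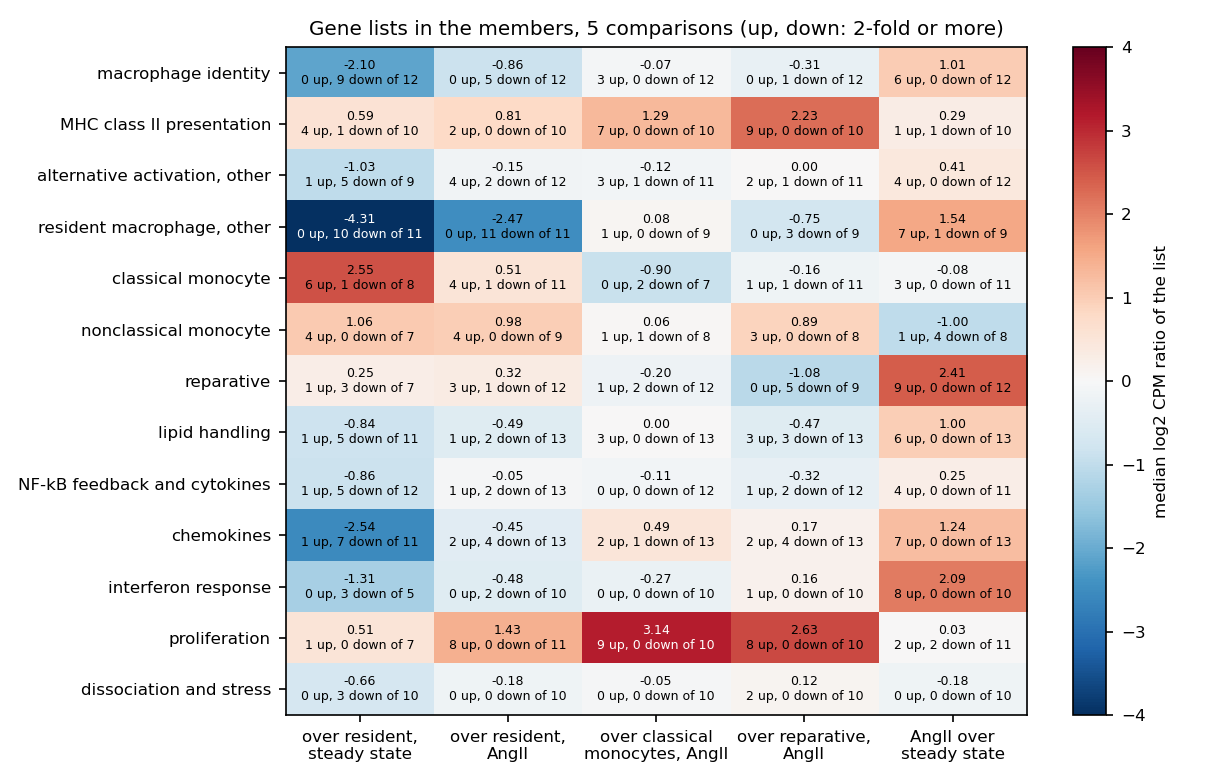
Median log2 CPM ratio of 13 gene lists (rows) in the members over 5 comparisons (columns), with the numbers of genes 2-fold or more higher and lower in each cell. The MHC class II row lies above 0 in all 5 columns, from 0.29 to 2.23, and the row of other resident macrophage genes runs from -4.31 against resident macrophages at steady state to 1.54 on AngII over steady state.

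All of these comparisons share the same member cells and are not independent. The comparators are gates on transcripts and not pure cells, and the mast cell gene *Mcpt4* had 742 UMIs in the steady-state resident macrophages and 0 in members.

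Between the libraries, members on AngII stood higher than members at steady state in reparative, interferon and chemokine genes. Of 7187 genes, 8.03% stood 2-fold or more higher on AngII and 4.01% lower. Of 12 reparative genes 9 stood higher and 0 lower (median log2 ratio 2.41, all genes 0.01). *Spp1* had 5213 UMIs in 158 of 677 members on AngII and 0 at steady state, at least 325-fold higher. *Arg1* had 503 and 0, at least 31.3-fold higher. After thinning, *Spp1* was in 0 of 30 members at steady state and 75 of 421 on AngII. Resident macrophages had it in 1 of 123 and 95 of 531 cells, so this difference was not particular to members. For the gene lists, resident macrophages were not compared between the libraries. Of 10 interferon response genes 8 stood higher (median log2 ratio 2.09), with *Isg15* at 151 against 16.0 CPM (9.43, 5.09 to 19.8).

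Of 13 chemokines 7 stood higher on AngII (median log2 ratio 1.24), with *Ccl8* at 447 UMIs against 0 (at least 27.8-fold higher) and *Ccl12* at 21.3 (7.23 to 104). *Il4ra*, the shared receptor chain for IL-4 and IL-13, stood at 124 against 19.2 CPM (6.46, 3.66 to 12.6). The early response gene *Egr3* (0.221, 0.166 to 0.294), the retinoic acid enzyme gene *Aldh1a2* (0.208, 0.145 to 0.299) and *Il1rl1* (0.352, 0.256 to 0.489) stood lower, and so did 4 of 8 nonclassical monocyte genes, with *Ace* at 16.4 against 133 CPM (0.124, 0.0864 to 0.176). The MHC class II list had 1 gene higher and 1 lower, with *H2-Ab1* at 7099 against 6377 CPM (1.11, 1.08 to 1.15). The neutrophil genes *S100a8* (1583 UMIs against 1) and *S100a9* (1542 against 2) moved with these values, and their part in them was not tested.

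With both libraries restricted to type-2-rich cells, 7.25% of 4633 genes stood 2-fold or more higher on AngII and 3.22% lower. Of 12 chemokines 8 stood higher and 0 lower (median log2 ratio 3.54), and of 5 interferon genes 5 stood higher, with *Isg15* at 10.2 (4.59 to 28.2). *Ccl7* had 192 UMIs against 2 (36.3, 9.90 to 302), and *Spp1* 745 against 0, at least 93.8-fold higher. *Cd209a* (0.434, 0.373 to 0.506) and *Cd226* (0.347, 0.265 to 0.452) stood lower in the AngII type-2-rich cells, while *H2-Ab1* had a ratio of 1.02 (0.978 to 1.05). *S100a8* had 421 UMIs against 0 in these cells as well. The steady-state side rests on 20 cells.

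The *EYFP* transcript, which the rule did not use, was in 5 of 31 members at steady state (16.1%, 5.45 to 33.7) and 58 of 677 on AngII (8.57%, 6.57 to 10.9). Resident macrophages carried it in 92 of 124 (74.2%) and 202 of 696 cells (29.0%). In CPM, *EYFP* stood at 30.3 against 220.4 in members and resident macrophages at steady state (ratio 0.138, 0.0819 to 0.218, and 0.0916 without its top cell) and at 47.4 against 136 on AngII (0.349, 0.291 to 0.415, and 0.524 after thinning). Classical monocytes on AngII had *EYFP* in 12 of 461 cells, and the ratio of members to them was 6.89 (4.17 to 12.1).

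B cells, which should lack the reporter, give a background. Those with at least 4 markers had *EYFP* in 3 of 54 cells at steady state (5.56%, 1.16 to 15.4) and 10 of 99 on AngII (10.1%, 4.95 to 17.8), at the depths given above. The resident macrophage gene *Folr2* was in 19 of these 99 B cells on AngII. The member intervals overlap those of the B cells in both libraries, but such overlap does not show that the shares are equal. Depths differed too, with medians of 5645 UMIs in B cells and 19342 in members at steady state. On AngII the medians were 4853 and 1211. The member shares are therefore read neither as reporter activity nor as its absence. After thinning to 1000 UMIs, *EYFP* was in 0 of 30 members at steady state, which allows up to 11.6% of cells with a UMI at that depth and sets no limit on cells that express the gene, and in 26 of 421 on AngII, against 18 of 123 and 59 of 531 resident macrophages. Classical monocytes on AngII had it in 4 of 297 cells after thinning (1.35%, 0.368 to 3.41), and the 26 of 421 members were 6.18% (4.07 to 8.92). These intervals do not overlap, and which group gives the better background was not tested. With all UMIs, AngII members with 1 resident gene had *EYFP* in 29 of 206 cells (14.1%, 9.64 to 19.6) and those with none in 29 of 471 (6.16%, 4.16 to 8.72). Type-2-rich cells had it in 4 of 20 and 22 of 171 cells, and the shallower members with 2 or 3 genes in 1 of 11 and 36 of 506. After thinning, *EYFP* was in 0 of 20 and 8 of 133 type-2-rich cells (6.02% on AngII). The other members then had it in 0 of 10 and 18 of 288 cells (6.25% on AngII).

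**Figure D5:**
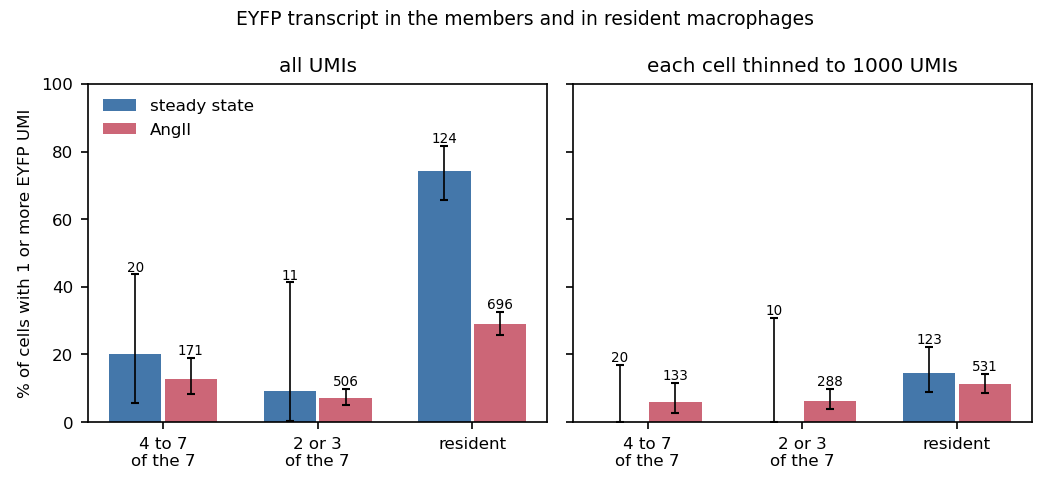
Share of cells with at least 1 *EYFP* UMI (y axis, percent) in type-2-rich cells, members with 2 or 3 genes and resident macrophages of each library, with all UMIs (left) and after thinning each cell to 1000 UMIs (right). Error bars are Clopper-Pearson 95% intervals with the number of cells on top, and with all UMIs resident macrophages stand highest in both libraries, at 74.2% and 29.0%.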

How the data were processed

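Single-cell RNA was captured from CD45-positive adventitial cells in 2 droplet libraries, 1 per condition. The deposited count matrices hold whole UMI counts per gene and barcode, which the authors made with Cell Ranger 3.1.0 (submitters' processing notes) against the mouse genome with the eYFP sequence added; no normalization had been applied. The study's own limits (300 to 6500 genes, no more than 5% mitochondrial UMIs) kept 306 of 346 and 4198 of 4419 barcodes. The members, gene lists and comparators were chosen with earlier results of these data known. UMIs were summed per group and scaled to CPM, and ratios were taken for genes with at least 50 UMIs over both groups. Genes were named from the lists, or as the 12 highest and 12 lowest ratios among genes with at least 100 UMIs that kept their direction after thinning and without the top cell. Ratios without the top cell of either group were added after seeing the data. No doublet caller was run, and an alternative left out barcodes with 2 or more markers of other cells. Gene positions are from GENCODE M21 on GRCm38. The steps were tested on simulated data. Python 3.11.15, NumPy 2.4.6, SciPy 1.17.1 and Matplotlib 3.10.9 were used.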

Additional observations from a re-analysis of the deposited data

Results flagged for a closer look

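*Siglech*, a gene of plasmacytoid dendritic cells that some resident macrophages also express, lay on opposite sides of the resident macrophages in the libraries. On AngII the members had 112 UMIs, 66 of them in 1 cell, and the resident macrophages 17 (ratio 9.40, and 3.88 without that cell), while at steady state the members had 0 UMIs and the resident macrophages 214 (ratio at most 0.0343). With 1 library per condition the difference between these ratios was not tested.

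The filter on genes and mitochondrial UMIs removed some barcodes that met the gate otherwise. They were 4 of 40 removed barcodes at steady state, all above 5% mitochondrial UMIs, and 15 of 221 on AngII, of which 13 were above that limit.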

How the results depend on the processing

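No paired analysis was possible because each condition has 1 library, and for the same reason no library could be left out. Of 98 alternative values of the 9 main results, 64 stayed within the counting interval or within 1.5 times the count and 34 moved. The main results are shares and counts, for which no reversal was defined. The gate share on AngII (16.1%) was 8.19% with at least 3 of the 7 genes, 12.8% without counting *Retnla*, 6.81% with at least 2 UMIs of a gene, 11.2% with no resident gene, 12.1% without barcodes with markers of other cells and 4.07% with at least 4 genes, the last chosen after seeing the data. At steady state (10.1%) it was 6.54% with no resident gene and 6.54% with at least 4 genes. The *EYFP* share of AngII members (8.57%) was 14.9% in cells with at least 1000 genes, 12.2% with at least 2 UMIs of a type-2 gene, 6.16% with no resident gene, 4.68% of the cells that met the gate once thinned, 12.9% with at least 4 genes and 3.1% when 2 *EYFP* UMIs were asked for.

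Counts of genes past 2-fold depended on depth and on the minimum count. Against resident macrophages at steady state and on AngII, monocytes, reparative macrophages and between libraries they were 956, 643, 406, 690 and 865. They were 106, 147, 157, 133 and 195 when the gate was applied after thinning, 1808, 1079, 853, 1313 and 1557 with at least 20 UMIs, and 299, 280, 129, 175 and 233 with at least 200 UMIs. With the mean over cells they were 1082 against resident macrophages on AngII, 934 against monocytes and 1291 against reparative macrophages. With at least 4 genes they were 695 against monocytes and 485 between libraries. Leaving out barcodes with markers of other cells moved none of these 5 counts by over 1.5 times. Of 352 alternative values of 120 single genes, 170 moved and 1 reversed, that of *Klrd1* against reparative macrophages (0.902 as a mean over cells). These genes were named only if their direction held after thinning and without the top cell. Of the settings counted, only the mean over cells could therefore reverse. Beyond the settings that change the cells or genes counted, the cause was not tested.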
